A study of Mus musculus with 8 samples.

Results

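Regional homeobox genes encode transcription factors that carry a homeodomain, a DNA-binding fold, and that divide the developing brain into territories along its length. The genes described here belong to the Lhx, Nkx, sine oculis-related (Six2, Six4, Six5 and others), Irx, Dlx, Pitx, Meis, Pbx, En, Hox and Pou families. They were chosen by symbol, as every row of the deposited table whose name begins with one of these family names, apart from Lhx9, Nkx2-1, Six3, Six6, Pou4f1 and Pbxip1. The rule used no measured value and gave 103 of the 21959 genes in the table. By family these were 39 Hox, 16 Pou, 13 Nkx, 7 Lhx, 6 Irx, 6 Dlx, 4 sine oculis-related, 4 Pbx, 3 Pitx, 3 Meis and 2 En genes. The Pou rows include Pou2af1 and Pou2af2, which by their names are POU-associated factors and not homeobox genes.

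The study addressed how isoliensinine, an alkaloid of lotus, acts on sleep. Polyadenylated RNA of wild-type mouse brain was sequenced in 4 libraries of the Model group, labelled PCPA (para-chlorophenylalanine, which blocks serotonin synthesis), and 4 of the IsoL group, labelled Isoliensinine. The design text speaks of female ICR mice dosed for 7 days, with isoliensinine at 12.5, 25 or 50 mg/kg, pentobarbital given once dosing ended, and hypothalamus taken from the brain. The labels leave out the dose behind the sequenced libraries and do not say whether PCPA preceded isoliensinine, the tissue label reads brain, and no age is given. The design text names no group that went without pentobarbital. Whether each library is a different mouse is not stated, so the p-values rest on library-to-library spread alone, part or all of which may be technical.

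Homeodomain proteins act in combinations. Hox genes set position in the hindbrain and spinal cord and are silent in front of it, En1 and En2 mark the midbrain and the isthmus behind it, Irx and Lhx genes pattern the diencephalon, and Dlx genes specify the inhibitory neurons of the basal forebrain. Meis and Pbx proteins are cofactors that bind DNA together with Hox and other homeodomain proteins. Many of these genes stay on in mature neurons, so in a bulk dissection their RNA also reports which regions were in the sample. In bulk tissue, fewer cells of a kind and less RNA per cell cannot be told apart.

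Summed gene counts ran from 14262836 to 21620466 per library. In what follows CPM is edgeR's count per library scaled to a common total, a level that does not correct for gene length, and 3 counts correspond to 0.138 to 0.210 CPM. The dissection held more than hypothalamus. The 20 hypothalamic peptide genes summed to 308 to 384 CPM in Model and 184 to 293 CPM in IsoL, with Kiss1 at 0 counts. The 11 midbrain dopamine genes summed to 598 to 675 CPM in Model and 464 to 602 CPM in IsoL, while the pituitary hormone genes Gh and Prl had 0 counts in every library. Transcripts of the 4 Y-linked genes Ddx3y, Uty, Kdm5d and Eif2s3y were counted 4330 to 6779 times per library, which goes against the stated female sex in all 8 libraries. With all 8 libraries 40 of 14536 genes passed the group test. Leaving out 1 library moved this by over 1.5 times in every case, to 13, 146, 21 and 6 without Model 1 to 4 and to 8, 6, 16 and 9 without IsoL 1 to 4.

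Of the 103 genes, 34 had no count in any library and another 28 had so few that they did not reach the filter on low counts. The remaining 41 were tested. None of the 41 passed at a Benjamini-Hochberg adjusted p of 0.05 in edgeR's quasi-likelihood test over all genes, against 0.275% of all genes tested (0.117% higher and 0.158% lower in IsoL). At an unadjusted p under 0.05 there were 11 members, 4 higher and 7 lower in IsoL, against 13.2% of all genes tested (6.44% higher and 6.78% lower). DESeq2 called 2 members, Dlx1 (lower) and Pou4f2 (higher), with 2.14% of all genes called by it. The libraries of the groups did not overlap for 6 members, with Pou4f2 above Model and 5, including Dlx1, Nkx2-2, Nkx2-4 and Pou2f2, below it, against 8.48% of all genes (4.05% above and 4.42% below). The fitted change was below 0 for 27 of the 41 members and for 50.5% of all genes, and its median was -0.08 on the log2 scale against -0.00146 for all genes. These counts describe members that were measurable, and no test was made over the set.

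**Figure D1:**
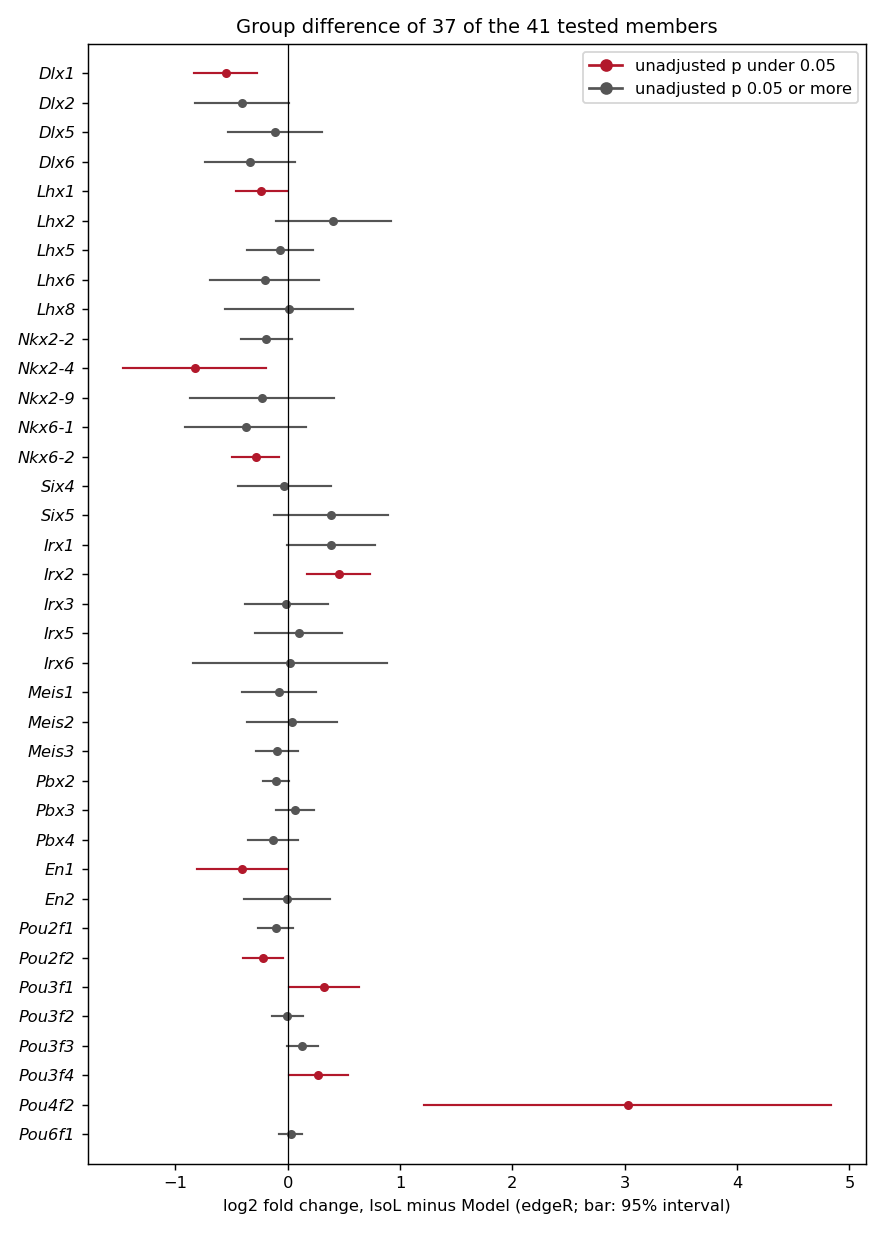
Fitted log2 fold change (horizontal axis, IsoL minus Model) of 37 of the 41 tested members with 95% intervals, in order of family, n = 4 libraries per group. Red marks an unadjusted edgeR p under 0.05, which 10 of those shown have; Pou4f2 lies far to the right at 3.03 with the widest interval.

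Levels of different genes were compared as deposited FPKM, which divides by gene length, given as mean ± SD over the 8 libraries of both groups. The cofactor and neuronal POU genes were the most abundant members. Pbx2 stood at 16.0 ± 0.916 FPKM, with a range of 15.0 to 17.7 FPKM. Pou3f3 and Pou6f1 followed at 11.6 ± 0.971 and 11.1 ± 0.407 FPKM, with overlapping ranges, and Meis3 at 8.99 ± 0.931 FPKM. Nkx6-2 (7.96 ± 1.08 FPKM) was the most abundant member of a family with regional expression, followed by Irx2 (4.28 ± 0.936 FPKM). The tested Dlx, Lhx and En genes had means between 1 and 3 FPKM, except Lhx8 at 0.787 FPKM. The least abundant tested members were Irx6 (0.313 ± 0.124 FPKM) and Six4 (0.371 ± 0.066 FPKM).

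**Figure D2:**
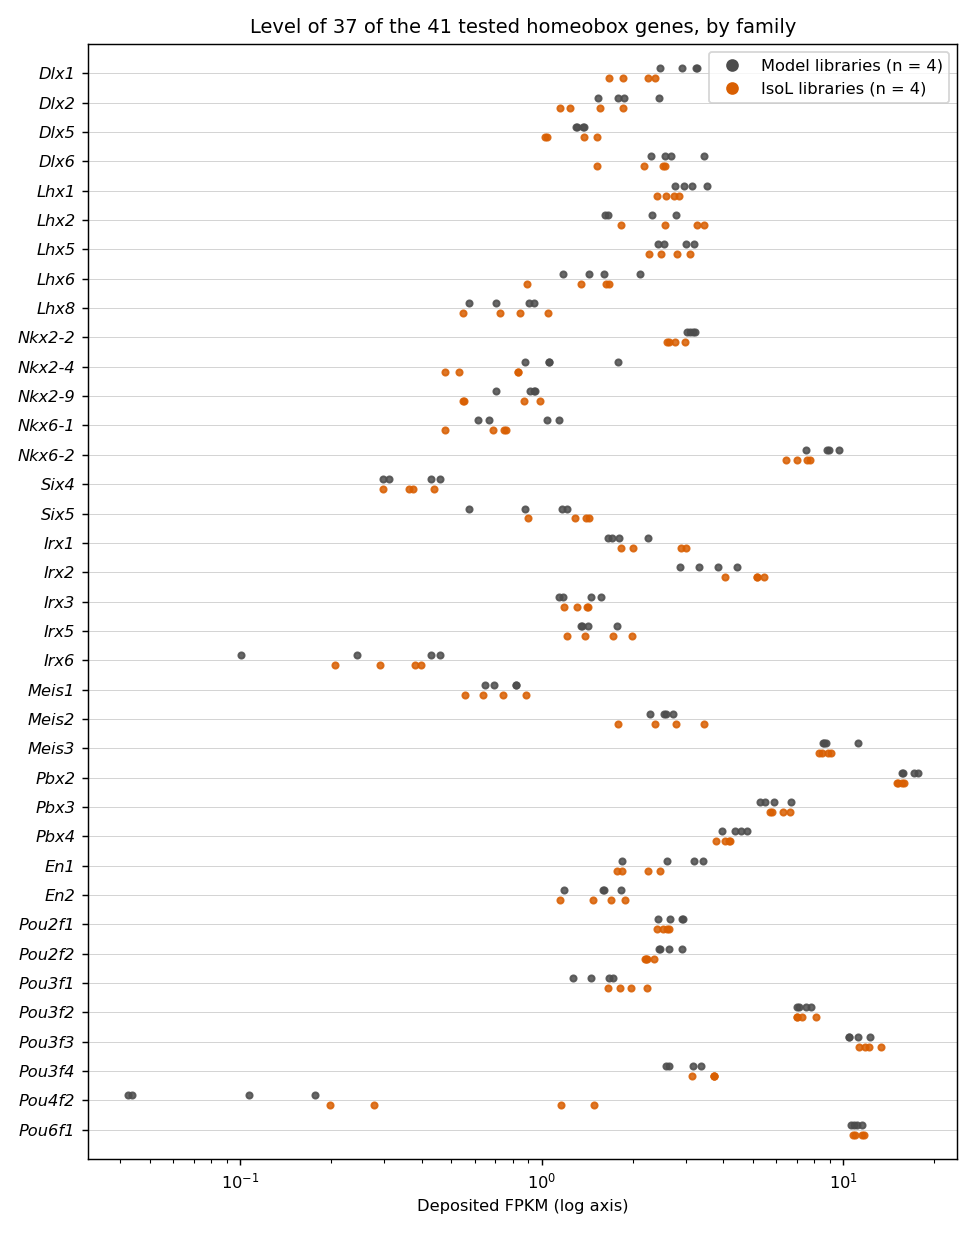
Deposited FPKM (log axis) of 37 of the 41 tested members in each library, Model in grey and IsoL in orange, 4 libraries each. Of those shown, Pbx2 sits furthest right at 15.0 to 17.7 FPKM; Pou4f2 spans from 0.0423 to 1.49 FPKM.

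The families also differed in how steady they were. The SD of log2 CPM among libraries of the same group had a median of 0.09 over the 4 Pbx genes and 0.11 over the 9 tested Pou genes, against 0.12 over all tested genes. It was 0.23 for the 3 Meis genes, 0.25 for the 4 Dlx and for the 5 Irx genes, 0.31 for the 6 Nkx genes and 0.35 for the 5 Lhx genes. It was 0.30 for the 2 En genes and 0.33 for the 2 tested sine oculis-related genes. The Pbx and Pou medians lay below that of all tested genes and the other medians given here above it. The Pou median hides Pou4f2, whose SD of 1.07 was the largest of any tested member. Low counts also widen this spread, and their share in it was not tested.

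Hox genes were essentially unread. Across 39 Hox genes and 8 libraries 47 counts were recorded, and 29 of the genes had none. The Hoxa cluster (chromosome 6, 11 genes) held 24 of these counts, Hoxd (chromosome 2, 9 genes) 14, Hoxb (chromosome 11, 10 genes) 8 and Hoxc (chromosome 15, 9 genes) 1. A library held 0 to 10 Hox counts in all, with 7, 0, 5 and 4 in Model and 9, 10, 4 and 8 in IsoL, so both groups sat near 0. A gene with 0 counts in a library may still be present at up to 0.138 to 0.210 CPM, counting error only. The genes of noradrenergic hindbrain cells were at a similar floor, with Dbh at 0 CPM in every Model library and at most 0.18 in IsoL, and Phox2a at no more than 0.139 CPM. Serotonin genes of the raphe, which lies partly in the midbrain, were read. Tph2, the neuronal tryptophan hydroxylase, was at 1.75, 1.001, 14.1 and 10.7 CPM in Model and 20.02, 3.36, 2.21 and 21.4 CPM in IsoL, high and low libraries occurring in both groups.

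Dlx genes were lower in IsoL in 4 of 4 fitted values, with Dlx1 leading. Dlx1 (ENSMUSG00000041911, chromosome 2, 71358457 to 71364325 in the deposited coordinates, build not given in the sources used here) is needed for the survival of cortical interneurons and marks GABA neurons of the hypothalamus and other forebrain regions. It was at 17.8, 13.3, 15.6 and 17.7 CPM in Model and 9.03, 12.9, 12.1 and 9.95 CPM in IsoL. Every IsoL library lay below every Model library, narrowly so between IsoL 2 and Model 2. The means were 16.1 ± 2.15 and 10.98 ± 1.80 CPM (SD, n = 4), a log2 fold change of -0.55 (SE 0.13, 95% interval -0.83 to -0.27, edgeR adjusted p = 0.0946). It passed in DESeq2 (adjusted p = 0.0150) and, without Model 2, in edgeR (adjusted p = 0.0281, with 0.998% of all genes called in that fit). Without each of the other libraries in turn it did not pass, with edgeR adjusted p up to 0.255.

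Its neighbour Dlx2, 9.43 kb away and transcribed towards it, acts with Dlx1 in the same progenitors. Dlx2 was at 4.48, 5.32, 5.08 and 6.99 CPM in Model and 3.56, 5.33, 4.43 and 3.25 CPM in IsoL, and the groups overlapped (log2 -0.40, SE 0.19, edgeR adjusted p = 0.390). The other Dlx pair on chromosome 6, Dlx5 and Dlx6, stood at 3.03 ± 0.118 against 2.81 ± 0.588 CPM and at 6.55 ± 1.23 against 5.22 ± 1.17 CPM, with log2 values of -0.11 and -0.33 (edgeR adjusted p = 0.843 and 0.470). Within both pairs the fitted changes had the same sign. IsoL 4 was the lowest of all libraries for Dlx2, Dlx5 and Dlx6, and IsoL 1 was for Dlx1. Dlx3 and Dlx4, genes of skin, placenta and bone, had 10 and 21 counts in all and were not tested.

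The proximal promoters of this Dlx pair, of Irx2 and of an unread Hox gene are shown because Dlx1 and Irx2 had the smallest p in their families, Dlx2 neighbours Dlx1, and Hoxa13 had the most CpG pairs of the Hox promoters while having 0 counts. Each runs 5′ to 3′ on the gene's strand from 250 bases before to 50 bases after the start (RefSeq, GRCm38.p6, a build whose coordinates differ from the deposited ones), with each CG in capitals. The regions are chr2:71529195-71529494 (+) for Dlx1, chr2:71546705-71547004 (-) for Dlx2, chr13:72628570-72628869 (+) for Irx2 and chr6:52260831-52261130 (-) for Hoxa13.
Dlx1: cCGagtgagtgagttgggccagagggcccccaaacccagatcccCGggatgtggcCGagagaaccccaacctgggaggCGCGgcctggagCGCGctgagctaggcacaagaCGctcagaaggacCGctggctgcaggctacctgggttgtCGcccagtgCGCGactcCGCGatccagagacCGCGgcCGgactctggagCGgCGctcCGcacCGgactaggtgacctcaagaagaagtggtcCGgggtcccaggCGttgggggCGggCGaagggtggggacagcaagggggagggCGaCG
Dlx2: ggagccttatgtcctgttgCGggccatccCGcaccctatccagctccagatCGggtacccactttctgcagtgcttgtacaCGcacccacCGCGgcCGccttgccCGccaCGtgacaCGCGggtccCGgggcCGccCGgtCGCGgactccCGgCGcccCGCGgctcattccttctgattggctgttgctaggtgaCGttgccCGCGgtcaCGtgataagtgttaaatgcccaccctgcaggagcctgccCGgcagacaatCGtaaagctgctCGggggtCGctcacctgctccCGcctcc
Irx2: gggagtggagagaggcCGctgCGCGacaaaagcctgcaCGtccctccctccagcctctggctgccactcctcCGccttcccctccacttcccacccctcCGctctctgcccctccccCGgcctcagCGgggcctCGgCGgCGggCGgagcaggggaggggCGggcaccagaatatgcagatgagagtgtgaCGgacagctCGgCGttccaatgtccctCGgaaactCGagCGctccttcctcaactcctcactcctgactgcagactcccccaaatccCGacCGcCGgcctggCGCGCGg
Hoxa13: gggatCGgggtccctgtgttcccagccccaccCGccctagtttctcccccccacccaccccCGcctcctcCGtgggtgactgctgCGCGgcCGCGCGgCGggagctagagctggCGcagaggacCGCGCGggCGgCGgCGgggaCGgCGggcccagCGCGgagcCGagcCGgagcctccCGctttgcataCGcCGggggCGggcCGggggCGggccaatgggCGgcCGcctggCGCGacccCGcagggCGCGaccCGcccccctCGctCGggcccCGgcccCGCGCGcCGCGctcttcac
They hold 27, 29, 25 and 45 CG pairs, against a median of 20 over the promoters of all tested genes and 7 over 27025 promoters. RefSeq promoters were matched for 64 of the 103 members. Observed over expected CpG exceeded 0.6 in 21 of the 28 tested members with a promoter (75.0%) and in 10 of the 22 Hox promoters (45.5%), against 68.6% for all tested genes and 36.4% for all promoters. The letters TAATTA, a palindrome that many homeodomains bind, occurred in 1 of the 64 member promoters (Hoxd11), in 2.55% of the promoters of tested genes and in 5.31% of all promoters. TATAAA, searched on both strands, occurred in 6 of the 64 (9.38%), against 7.10% of the promoters of tested genes and 14.2% of all promoters.

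Among LIM-homeobox genes, which combine a homeodomain with protein-binding LIM domains, none differed beyond the threshold. Lhx1, a gene of diencephalic and midbrain neurons including the suprachiasmatic nucleus, was at 13.1, 14.3, 11.1 and 12.1 CPM in Model and 9.82, 10.6, 11.1 and 11.5 CPM in IsoL. The means were 12.7 ± 1.37 and 10.8 ± 0.734 CPM, with overlap (log2 -0.23, SE 0.11, edgeR adjusted p = 0.357). Its close relative Lhx5 had a log2 value of -0.07 (edgeR adjusted p = 0.868).

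Lhx2, which specifies cortex and is kept in tanycytes and glia-like cells, split the IsoL libraries. It was at 7.41, 7.07, 12.2 and 10.3 CPM in Model and 15.2, 14.5, 7.97 and 11.2 CPM in IsoL (log2 0.41, SE 0.23, edgeR adjusted p = 0.486). IsoL 1 and 2 were the highest of the 8, and IsoL 3 and 4 lay inside the Model range. The 15 cortical and hippocampal marker genes were highest in the same libraries, at 706 and 685 CPM summed in IsoL 1 and 2, against 508 and 481 in IsoL 3 and 4 and 500.0 to 542 in Model. The 10 choroid plexus and ependymal genes were as well, at 747 and 646 CPM summed in IsoL 1 and 2 against 47.6 to 116 in the other 6 libraries. That sum is weighted to abundant genes. The median over its 9 tested genes of log2 CPM minus the gene mean was 0.86 and 0.31 in IsoL 1 and 2. It was 0.09 and -0.01 in IsoL 3 and 4 and -0.38 to -0.12 in Model. Of the tested genes of these lists 9 of 14 and 7 of 9 had a fitted value above Model. Their part in the Lhx2 values was not tested. Lhx6 and Lhx8, genes of ventral forebrain interneurons and cholinergic neurons, had log2 values of -0.20 and 0.01 (edgeR adjusted p = 0.733 and 0.990). The pituitary genes Lhx3 and Lhx4 had 37 and 57 counts in all, at 15 and 14 for Lhx4 in IsoL 1 and 4 against 2 to 6 elsewhere, and were not tested.

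**Figure D3:**
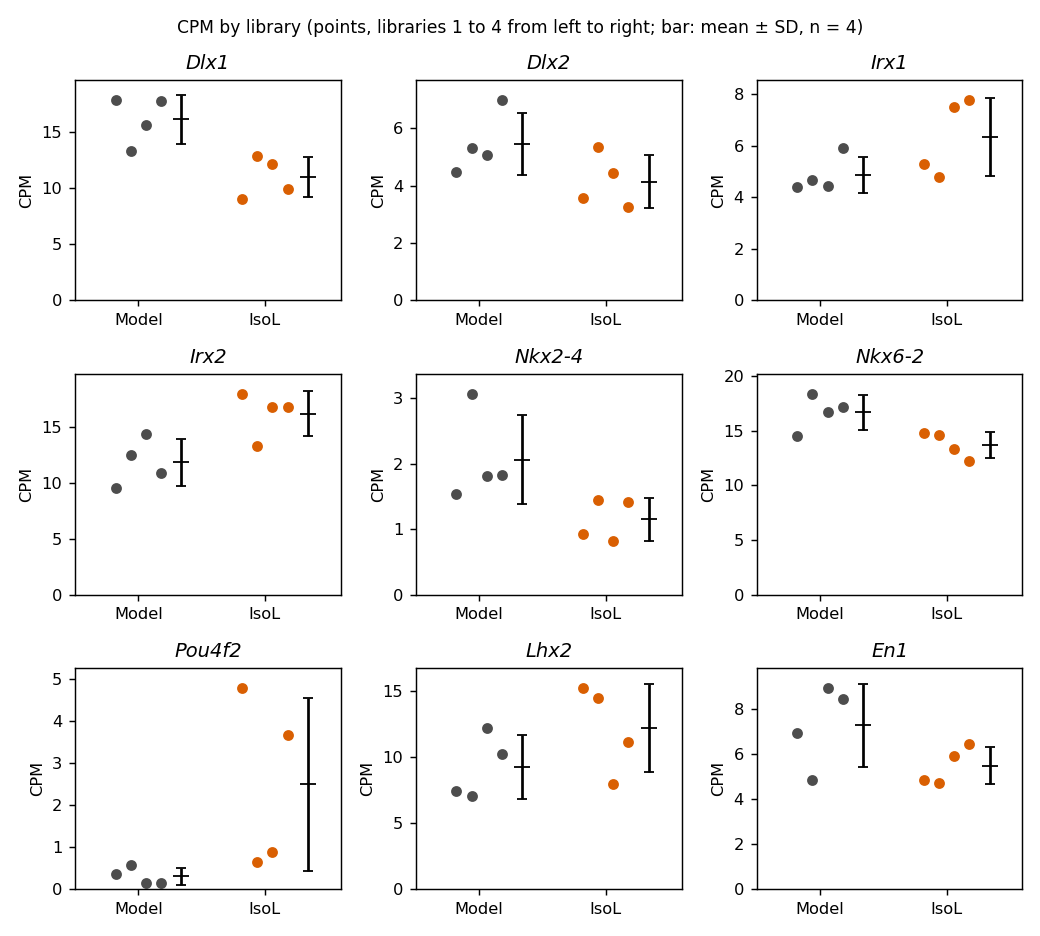
CPM of 9 members by library (points, linear axis from 0) with the mean ± SD of each group (n = 4). Dlx1 and Nkx2-4 separate the groups, Pou4f2 is high in IsoL 1 and 4 only, and Lhx2 is highest in IsoL 1 and 2.

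All 6 tested Nkx genes had fitted values below 0, with a median of -0.33 on the log2 scale. Nkx genes pattern the ventral neural tube. Nkx2-4, a relative of the hypothalamic gene left out by the rule and itself expressed in ventral hypothalamus, was at 1.54, 3.07, 1.81 and 1.83 CPM in Model and 0.921, 1.45, 0.822 and 1.42 CPM in IsoL. The groups did not overlap, and the means were 2.06 ± 0.683 and 1.15 ± 0.328 CPM on 13 to 49 counts a library (log2 -0.82, SE 0.30, 95% interval -1.46 to -0.19, edgeR adjusted p = 0.259). Nkx2-2, 92.1 kb away and active in ventral diencephalon and oligodendrocyte precursors, was at 9.30, 8.64, 9.18 and 8.96 CPM in Model and 7.61, 7.54, 7.91 and 8.53 CPM in IsoL. These groups did not overlap either, by a small margin between IsoL 4 and Model 2 (log2 -0.19, 95% interval -0.42 to 0.04, edgeR adjusted p = 0.467). Of the 20 hypothalamic peptide genes 18 were tested, 12 with fitted values below Model and 6 above, and only Pmch, lower in IsoL, passed in edgeR. Their summed levels, given above, did not overlap between the groups. By library, Nkx2-4 was highest in Model 2, where the sum was the lowest of Model (308 CPM). Nkx2-4 was lowest in IsoL 3, where the sum was the highest of IsoL (293 CPM). Single genes of the list differed in Model 2. Hcrt, Pmch and Hdc were at their highest of all libraries there (68.5, 39.5 and 20.7 CPM), and Avp, Oxt and Sst at their lowest of Model (10.2, 14.5 and 35.2 CPM). The part of these genes in the Nkx2-4 values was not tested.

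Nkx6-2, a gene of mature oligodendrocytes, was at 14.5, 18.3, 16.7 and 17.1 CPM in Model and 14.8, 14.6, 13.3 and 12.2 CPM in IsoL. Model 1 lay inside the IsoL range and the other Model libraries above it (log2 -0.28, SE 0.10, 95% interval -0.50 to -0.07, edgeR adjusted p = 0.241). The 10 genes of the oligodendrocyte list summed to 13968 to 14365 CPM in Model and 14194 to 15685 CPM in IsoL, with overlap. Of these genes 9 of 10 had fitted values above Model. Their part in the Nkx6-2 values was not tested. Nkx6-1 and Nkx2-9 had log2 values of -0.37 and -0.23 (edgeR adjusted p = 0.562 and 0.779). The other 7 Nkx genes had at most 30 counts in all, Nkx6-3 the most.

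Irx genes, which stand in clusters of 3 on chromosomes 13 and 8, had fitted values above 0 in 4 of 5 tested members, none past the threshold. In mouse the Irx genes pattern thalamus and midbrain. Irx2 (ENSMUSG00000001504, chromosome 13, 72776939 to 72782317) was at 9.58, 12.5, 14.4 and 10.9 CPM in Model and 18.0, 13.3, 16.8 and 16.8 CPM in IsoL. Only IsoL 2 lay inside the Model range. The means were 11.9 ± 2.08 and 16.2 ± 2.02 CPM (log2 0.45, SE 0.13, 95% interval 0.18 to 0.73, edgeR adjusted p = 0.151, and 0.101 to 0.371 without each library in turn). Irx1, 665 kb away, was at 4.41, 4.69, 4.45 and 5.91 CPM in Model and 5.28, 4.81, 7.53 and 7.79 CPM in IsoL (log2 0.39, SE 0.18, edgeR adjusted p = 0.382). Here IsoL 3 and 4 were above all Model libraries and IsoL 1 and 2 were not. In the chromosome 8 cluster, Irx3, Irx5 and Irx6 had log2 values of -0.00985, 0.10 and 0.02, with 95% intervals of -0.38 to 0.36, -0.29 to 0.48 and -0.84 to 0.89 (edgeR adjusted p = 0.987, 0.853 and 0.987). These intervals overlap those of Irx1 and Irx2, and the difference between the clusters was not tested. Irx4, a heart ventricle gene, had 18 counts in all.

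The engrailed genes, which maintain midbrain dopamine neurons in the adult, were read at 2.42 ± 0.626 FPKM (En1) and 1.55 ± 0.271 FPKM (En2), with overlapping ranges. En1 was at 6.92, 4.82, 8.90 and 8.42 CPM in Model and 4.85, 4.70, 5.88 and 6.42 CPM in IsoL. Model 2 lay among the IsoL libraries and the other Model libraries lay above them (log2 -0.40, SE 0.19, edgeR adjusted p = 0.373, and 0.104 without Model 2). En2 was at 5.51 ± 0.957 and 5.49 ± 1.12 CPM (log2 -0.00449, 95% interval -0.39 to 0.38, edgeR adjusted p = 0.994). The 11 midbrain dopamine genes, such as the dopamine transporter gene Slc6a3, were all below Model in their fitted values, none past the threshold, and their summed level was lowest in IsoL 1 and 2, at 464 and 476 CPM. Their part in the En1 values was not tested.

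Pitx3, a defining factor of midbrain dopamine neurons, had only 3 to 21 counts a library, 88 in all, and was not tested, although Slc6a3 was read at 92.0 to 159 CPM. Pitx1, of pituitary and hindlimb, had 16 counts.

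None of the Meis and Pbx cofactors passed the threshold, and their fitted values ran from -0.13 (Pbx4) to 0.07 (Pbx3) on the log2 scale. Pbx2 was at 58.1, 64.0, 61.7 and 57.7 CPM in Model and 54.9, 58.3, 55.0 and 56.5 CPM in IsoL, with an overlap (log2 -0.10, 95% interval of -0.22 to 0.01, edgeR adjusted p = 0.438). Pbx3 and Pbx4 had edgeR adjusted p = 0.758 and 0.618. The bounds of the Pbx2 interval lie within 0.22 of 0 on the log2 scale. Meis2, a gene of striatal and olfactory neurons, was steady in Model at 27.3 to 33.3 CPM and ranged from 21.4 (IsoL 3) to 41.8 (IsoL 1) in IsoL (log2 0.04, edgeR adjusted p = 0.946). Meis1 and Meis3 had log2 values of -0.08 and -0.10 (edgeR adjusted p = 0.868 and 0.684), and Meis3 was at 35.4 CPM in Model 2 against 26.2 to 29.1 CPM in the other 7 libraries.

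The POU genes of classes 2, 3 and 6 encode factors with a POU-specific domain beside the homeodomain. Of the class 3 (Brn and Oct6) genes, Pou3f4, needed for neuron maturation in hypothalamus and striatum, was at 10.1, 9.26, 7.51 and 7.74 CPM in Model and 10.9, 9.28, 10.8 and 10.8 CPM in IsoL (log2 0.27, SE 0.12, edgeR adjusted p = 0.349). Pou3f1, the Oct6 gene, was at 4.96, 6.57, 5.57 and 6.45 CPM in Model and 8.66, 7.01, 7.59 and 6.33 CPM in IsoL (log2 0.32, SE 0.14, edgeR adjusted p = 0.353). In both genes 1 IsoL library, number 2 for Pou3f4 and number 4 for Pou3f1, lay inside the Model range. Pou3f3 had a log2 value of 0.13 (edgeR adjusted p = 0.401). Pou3f2, which neuroendocrine neurons of the hypothalamus need, was at 41.2 ± 2.06 and 41.1 ± 2.58 CPM (log2 -0.00233, 95% interval -0.14 to 0.14, edgeR adjusted p = 0.991).

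Pou2f2, the Oct2 gene of B cells and some neurons, was at 24.5, 21.6, 20.2 and 20.2 CPM in Model and 18.5, 18.4, 19.4 and 17.9 CPM in IsoL, without overlap (log2 -0.22, SE 0.08, edgeR adjusted p = 0.276). Pou2f1 had a log2 value of -0.11 (edgeR adjusted p = 0.564). Pou6f1 had the smallest spread within groups of the 41, at 74.6 to 80.5 CPM over the 8 libraries (log2 0.03, edgeR adjusted p = 0.852).

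Pou4f2 showed the widest difference of all members. Known as Brn3b, it specifies retinal ganglion cells and is also read in the superior colliculus of the dorsal midbrain. Pou4f2 (ENSMUSG00000031688, chromosome 8, 79159639 to 79163274) had 5, 9, 2 and 2 counts in Model and 78, 11, 14 and 80 in IsoL, or 0.297 ± 0.204 and 2.49 ± 2.06 CPM. Every IsoL library was above every Model library, but IsoL 1 and 4 stood above IsoL 2 and 3. The fitted log2 value was 3.03 (SE 0.80, 95% interval 1.22 to 4.84, edgeR adjusted p = 0.165), which rests on few Model counts and depends on the prior count, and it ranged from 2.80 to 3.55 without each library in turn. DESeq2 called it (adjusted p = 0.00168). Its paralogue Pou4f3 had 0, 3, 0 and 0 counts in Model and 3, 2, 2 and 22 in IsoL and was not tested.

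The summed level of the dorsal midbrain marker genes was, like Pou4f2, higher in IsoL 1 and 4 than in IsoL 2 and 3, though single genes such as Tfap2d, lowest of IsoL in IsoL 1, did not share that split. Their 11 genes summed to 26.1, 46.9, 41.4 and 36.7 CPM in Model and 92.3, 56.8, 54.1 and 92.8 CPM in IsoL, all 11, Otx2 of the choroid list among them, had fitted values above Model, and Dmbx1, Tfap2d and Mab21l2 passed in edgeR. None of the 11 was at 0 throughout. Tph2, given above, was also highest in IsoL 1 and 4. The part of these in the Pou4f2 values was not tested.

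Homologues of the fly gene sine oculis, which act with Eya proteins, were the last family, with Six4 and Six5 tested. Six5 was at 1.75, 3.63, 3.48 and 2.65 CPM in Model and 4.24, 2.72, 3.86 and 4.26 CPM in IsoL, Model 1 lowest of the 8 (log2 0.39, 95% interval of -0.12 to 0.89, edgeR adjusted p = 0.507). Six4 had means of 4.06 ± 0.878 and 3.995 ± 0.633 CPM (fitted log2 change -0.03, edgeR adjusted p = 0.964). Six2, a gene of kidney progenitors, had 29 counts in all.

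**Figure D4:**
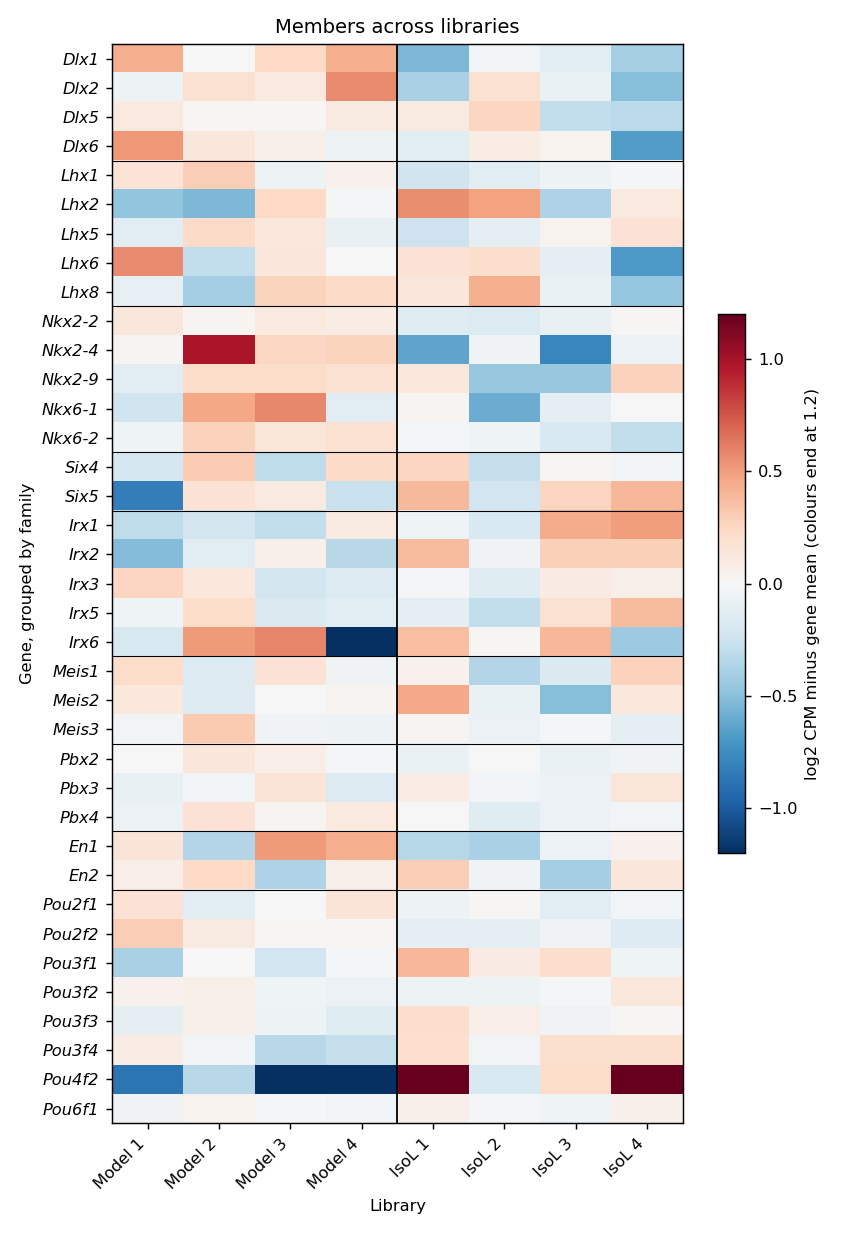
Log2 CPM of 37 of the 41 tested members, each minus its mean over the 8 libraries (colour, ends at 1.2 either way), with libraries as columns and genes grouped by family. Pou4f2 (beyond the colour ends in 4 libraries), Irx6 and Nkx2-4 have the widest ranges, and Pou6f1, Pou3f2 and Pbx2 the narrowest.

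Members were also grouped by 1 region assigned to each gene. By this grouping 8 of 8 forebrain genes were measurable, of which 6 had fitted values below 0 (Nkx6-2 counted here, though also an oligodendrocyte gene). All 9 hypothalamic and thalamic genes were measurable, 6 of them below 0. The midbrain group was En1, En2, Nkx6-1 and Pitx3, of which 3 of 4 were measurable, all below 0 (En2 changes sign without some libraries). Pou4f2, also read in dorsal midbrain and higher in IsoL (log2 3.03), was not placed in this group. None of 30 hindbrain and spinal cord genes reached the filter. All 30 are Hox genes, so this repeats the Hox result above and is no separate finding about region. None of 4 pituitary genes reached the filter either. Of the 19 broadly expressed genes 17 were tested, 10 of them below 0. Another 29 members were given no region, with 4 tested (2 below 0 and 2 above) and 25 not tested. The measurable shares above therefore depend on which genes were given a region.

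Homeobox genes outside these families gave 1 call among the 41 tested of 57, against 0.275% of all genes tested. That was Dmbx1, a gene of the developing midbrain, at 0.0956 ± 0.149 CPM in Model and 1.48 ± 0.703 CPM in IsoL (log2 3.79, SE 0.67, edgeR adjusted p = 0.0434), on 113 counts in all. Another 5 at an unadjusted p under 0.05 were higher (Pax3, Otx2, Zeb2, Emx2 and Msx1) and 8 were lower (among them Otp, Isl1, Hmx2, Gbx2, Bsx, Vax1 and Zfhx3), so that 34.1% of the 41 were under it, against 13.2% of all genes tested. The lower ones include the hypothalamic genes Otp (log2 -0.64, edgeR adjusted p = 0.185) and Hmx2 (log2 -1.49, edgeR adjusted p = 0.0837). The median over the 41 was -0.03 on the log2 scale. Of 25 genes for partner proteins of homeodomain factors (the LIM-only and Ldb genes, Eya, Dach, Tle and others), all were tested and only Lmo3 passed, with 40.8 ± 1.65 CPM in Model against a higher 56.7 ± 6.42 CPM in IsoL (log2 0.48, SE 0.08, edgeR adjusted p = 0.0345). LMO proteins compete with LIM-homeodomain proteins for Ldb cofactors. Without Model 1, Model 3, Model 4, IsoL 1 or IsoL 2 neither list had a call, and without IsoL 4 the first had none.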

How the data were processed

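Groups come from the sample titles, 4 Model and 4 IsoL libraries. Per the submitters' processing notes the tools were fastp 0.22.0, HISAT2 2.1.0 and HTSeq 0.9.1; the sources used here give neither build nor annotation, and no strand marking is stated. Per the file headers, the deposited table holds read counts and FPKM values per gene and library. The deposited FPKM values match counts over the table's gene length and summed counts to within a relative 1.11e-09 where counts exceed 200. Counts were filtered with filterByExpr (14536 genes kept), scaled by TMM and compared between groups by the quasi-likelihood test of edgeR 4.0.16 under R 4.3.3, robust option on, with Benjamini-Hochberg adjustment over all tested genes at 0.05. SE is the absolute log2 fold change over the square root of F. Log2 CPM for spread and the heat map used a prior count of 2. No 2 libraries of a group agreed within sampling noise (chi-square over its degrees of freedom at least 2.52). DESeq2 1.42.0, its size factors, no filter, a replicate block and leaving out each library were alternatives. The edgeR step was tested on simulated data.

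The members, families, marker lists and tests were chosen with earlier results of these data known. Of the 103 members, 23 were named by a rule, namely any past the threshold, up to 25 with an unadjusted p under 0.05 and, per family, the one with the highest mean FPKM and the 2 with the smallest p; other members were added to account for the families. Results for some genes are not reported here; counts over members and families include them. Promoters are RefSeq's (GRCm38.p6), 250 bases before to 50 after the start. Floors of 3 counts cover counting error only. Figures used matplotlib 3.10.9.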

Additional observations from a re-analysis of the deposited data

Results flagged for a closer look

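Among the 41 tested members, each group of 4 libraries was checked for a library standing apart by Dixon's criterion, 82 checks in all, of which chance flags about 1 in 20. There were 3. Meis3 in Model 2 was at 35.4 CPM, with the other Model libraries at 27.2 to 27.8 CPM. Nkx2-9 in Model 1 was at 0.909 CPM, with the others at 1.15 to 1.19 CPM. Pou3f4 in IsoL 2 was at 9.28 CPM, with the others at 10.8 to 10.9 CPM.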

How the results depend on the processing

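Of the families, those other than Dlx and Pou had 0 calls in every fit, and DESeq2 size factors moved no count or median by over 1.5 times or beyond its spread. The count of all genes called was 40 (17 higher, 23 lower). It was 74 (30 and 44) with no filter on low counts, 17 (9 and 8) with the replicate block, 311 (161 and 150) in DESeq2, and 6 to 146 without each library (2 to 73 higher, 3 to 73 lower). The count of members called was 0; it was 2 in DESeq2 (1 higher, 1 lower; 1 Dlx gene, of the forebrain group, and 1 Pou gene), and 0 to 1 without each library, lower in each case, the 1 being Dlx1 without Model 2. The call count of other homeobox genes was 1, and was 2 with no filter, 0 with the replicate block, 7 in DESeq2 and 0 to 1 without each library. That of the partner genes was 1, and was 2 in DESeq2 and 0 to 2 without each library, the 2 without IsoL 3. The Pou family's median of 0.03 ranged from -0.0189 to 0.0471 without each library. Near-zero log2 values changed sign without a library: En2 ranged from -0.11 to 0.11, Six4 from -0.12 to 0.0810, Meis1 from -0.20 to 0.0217 and Meis3 from -0.13 to 0.00626. The cause of these shifts was not tested. The numbers do not pair the libraries: same-numbered libraries had correlations of 0.0260, 0.0199, 0.0696 and 0.0626, and 1 Model library (number 4) correlated best with its own number. The replicate block called 0 members. The 28 read but untested members had at most 88 counts in all. Whether depth or low expression kept them under the filter was not tested.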
